A study of Mus musculus with 6 samples.

Results

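The genes of distal tubule salt, calcium and magnesium transport were followed in 6 mouse kidneys. The set was chosen by name, with earlier results of these data known. It held Slc12a3, Trpm6, Pvalb, Trpv5, Calb1, S100g, Slc8a1, Atp2b1, Atp2b4 and Klk1, which are 10 of the 32285 genes in the table of read counts. All 10 were found and all 10 passed the filter on low counts, which left 15955 genes for the test. Kidney RNA was sequenced. In the 3 control kidneys 10%, 5% and 15% of mitochondrial DNA copies carried a mutation in TrnE, which encodes the glutamate tRNA of mitochondria. In the 3 high-load kidneys this share was 75%, 75% and 80%. All 6 were labelled as 100 weeks old, and the text on the design of the series gives females. The controls carried the mutation as well, at a low load. The sources used here do not give the strain, the way the mutation arose or the part of the kidney taken. The names control 1, 2 and 3 and high-load 1, 2 and 3 follow the replicate numbers of the labels.

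The distal convoluted tubule takes up sodium chloride through the thiazide-sensitive carrier NCC, the product of Slc12a3, and takes up magnesium through the channel TRPM6. In the later part of this segment and in the connecting tubule, calcium enters the cell through TRPV5, is carried across the cytosol by calbindins, and leaves into the blood through the sodium-calcium exchanger NCX1 and plasma membrane calcium pumps. Parathyroid hormone and active vitamin D raise this calcium transport, and the connecting tubule also secretes tissue kallikrein. In whole kidney RNA, fewer cells of a segment and less RNA per cell cannot be told apart.

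Total counts ranged from 17449270 to 18865997 per kidney. One kidney went against the stated sex. Control 2 had 3 counts of Xist, the RNA of the inactive X chromosome, where the other 5 kidneys had 14002 to 17028, and it had 1110 counts of Ddx3y, 403 of Uty, 421 of Kdm5d and 1276 of Eif2s3y, Y-linked genes at 0 counts in each of the others. Fold changes of the 10 genes, and of other genes where they are printed, are therefore given with and without control 2. High-load 1 stood apart in another way. Its summed level of 12 proximal tubule markers was 4125 CPM. The sum was 18871 to 25490 CPM in controls and 21039 and 11228 in high-load 2 and 3. Kap, 1 of the 12, was at 5108, 4408 and 10599 CPM in controls 1 to 3. In high-load 1 to 3 Kap was at 150, 9589 and 2955 CPM, so it was a large part of the sum in high-load 2 and a small one in high-load 1. With Kap left out of the sum, high-load 1 was still the lowest kidney, and every high-load kidney was below every control. Levels are in CPM, which are read counts relative to the library total after scaling with TMM factors. Fold changes are high load over control from edgeR's quasi-likelihood test, and adjusted p-values are Benjamini-Hochberg values over all genes tested, with a threshold of 0.05.

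Of the 10 genes, the calcium channel gene Trpv5 stood 3.56-fold higher in high-load kidneys and the calcium carrier gene Calb1 at a log2 fold change of -0.83, each with no overlap between the groups, while the salt carrier gene Slc12a3 overlapped. No adjusted p passed the threshold. At 0.05, 0 of the 10 genes differed between the groups in edgeR's test, where 0.0188% of all genes were called. Limma-voom also called 0 of the 10 (0% of all genes). DESeq2 called 2, Trpv5 higher and Calb1 lower, where it called 7.04% of its genes (4.46% higher and 2.59% lower). The DESeq2 share, here and below, is over 23811 genes, not filtered on low counts, where edgeR's test had 15955. Any gene without an adjusted p from DESeq2 counted there as not called. The DESeq2 share is therefore not directly comparable with the edgeR shares, and it can be too low a background for genes with higher counts. At an unadjusted p under 0.05 there were 3 of the 10, Trpv5 on the higher side and Calb1 and S100g on the lower, beside 24.2% of all genes (14% higher and 10.2% lower). Trpv5 alone had an adjusted p under 0.1 in edgeR's test, a level that 2.59% of genes reached on the higher side. The groups did not overlap for 3 of the 10, Trpv5, Calb1 and Pvalb, beside 33% of all genes (17.1% higher and 15.8% lower). These last counts, each 3 of 10, lie near the share over all genes. The median log2 fold change of the 10 was -0.23, beside 0.0067 over all genes tested, with 8 below and 2 above zero. Without control 2 the median was -0.35, edgeR called 0 of 16367 genes (0%) at 0.05 or at 0.1, and 2 of the 10 had an unadjusted p under 0.05 (Trpv5 and Calb1), beside 16.1% of all genes (9.84% higher and 6.25% lower).

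**Figure D1:**
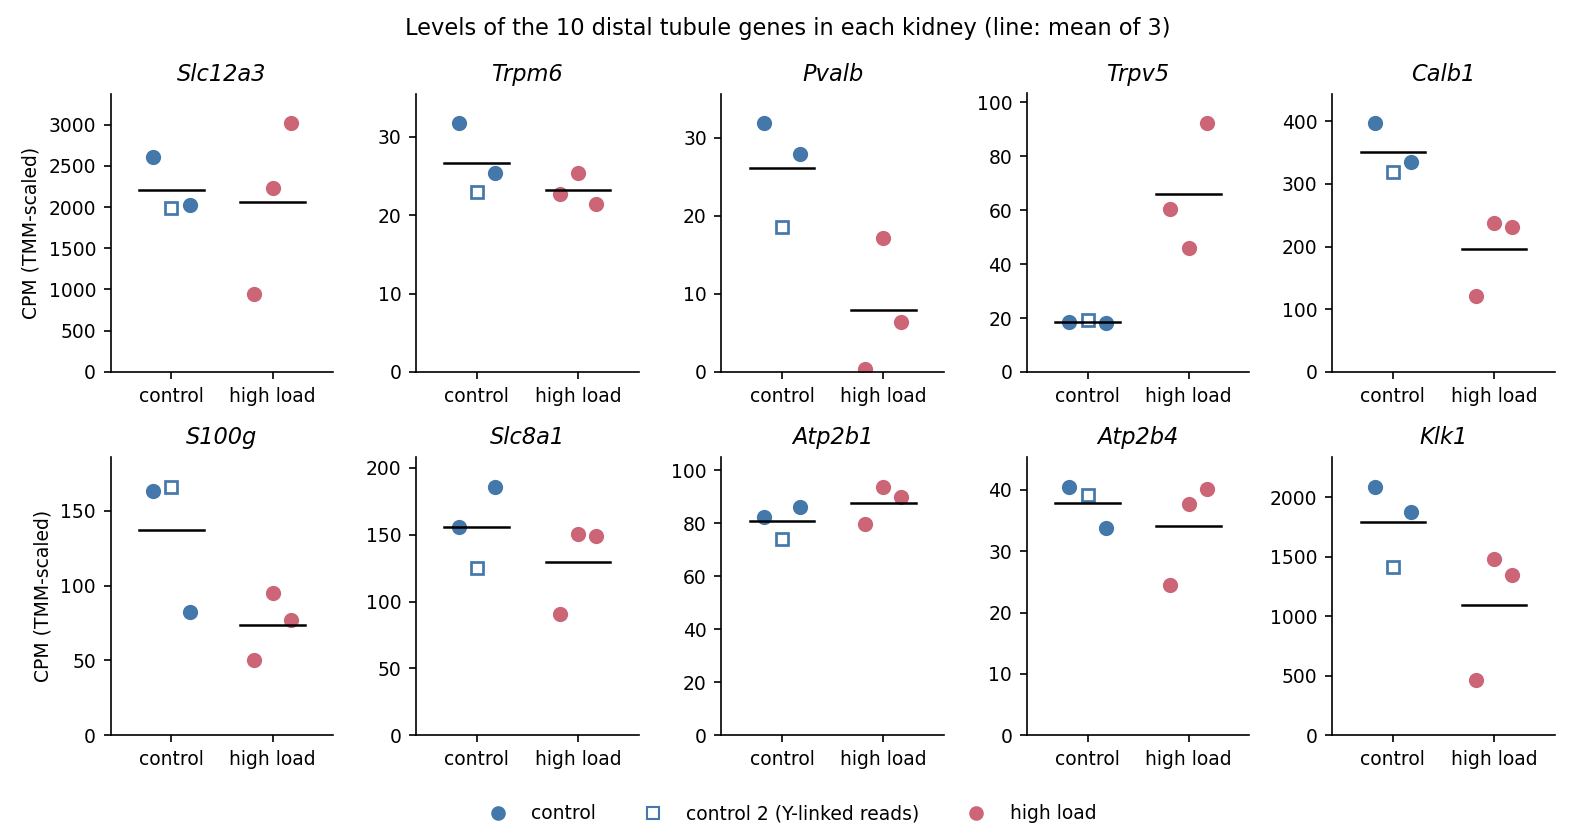
Level of each of the 10 genes (vertical axis, TMM-scaled CPM) in the 3 control and 3 high-load kidneys, with a point per kidney, an open square for control 2 and lines at the means. The groups are apart for Trpv5, Pvalb and Calb1 and overlap for the other 7 genes, and high-load 1 is the lowest kidney for 7 of the 10.

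**Figure D2:**
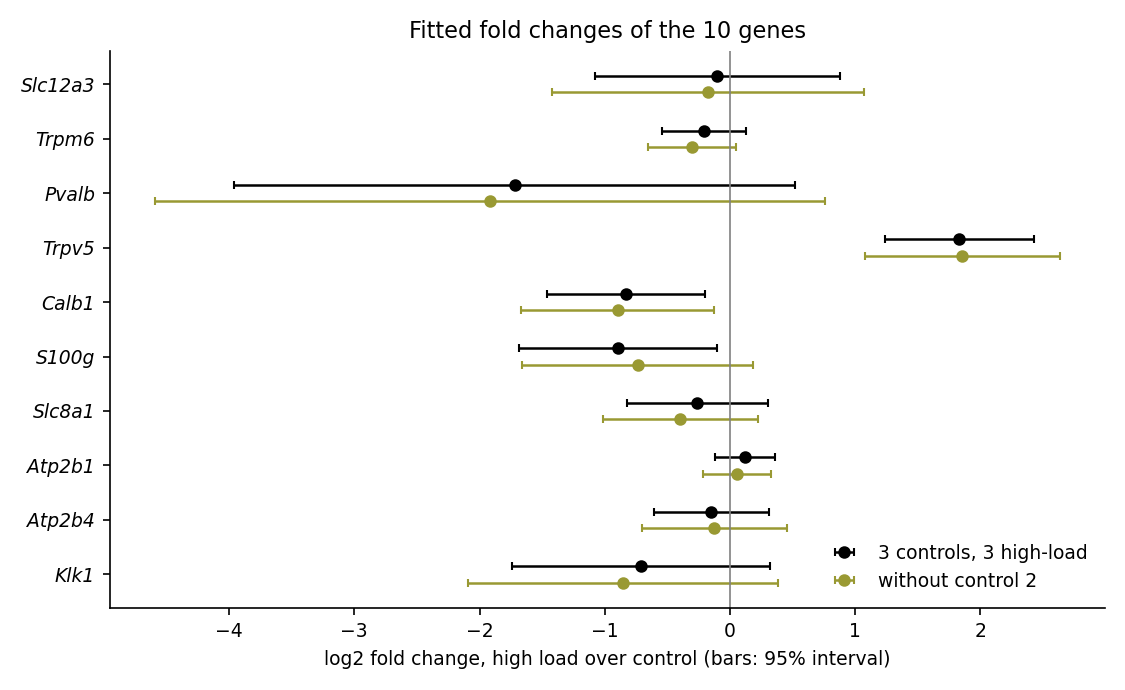
Fitted log2 fold changes of the 10 genes, high load over control, with 95% intervals from the quasi-likelihood fit, for all 6 kidneys (black) and without control 2 (olive). Trpv5 is at 1.83 and 1.85, and its intervals and those of Calb1 lie off zero in both fits.

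Per kilobase of exon, the scale on which levels of different genes can be compared, Klk1 was the most abundant of the 10 in controls, at 1665 ± 322 CPM per kb (SD, n = 3). S100g followed at 286 ± 98.9 and Slc12a3 at 199 ± 31.3 CPM per kb, and the ranges of these 2 overlapped. Calb1 stood at 72.3 ± 8.43, Pvalb at 25.1 ± 6.57 and Slc8a1 at 8.28 ± 1.62 CPM per kb. Trpv5 and Atp2b1 overlapped at 5.73 ± 0.182 and 5.30 ± 0.408 CPM per kb, and Trpm6 and Atp2b4 at 3.46 ± 0.583 and 3.09 ± 0.295 CPM per kb. In high-load kidneys Trpv5 was at 20.4 ± 7.31 CPM per kb, rank 5 of the 10 where it had been at rank 7 (8 by the longest transcript). Its high-load range, 14.1 to 28.4 CPM per kb, overlapped those of Calb1 and Pvalb, the genes ranked next to it. Pvalb was at 7.65 ± 8.14 CPM per kb. With the longest transcript as length, Slc12a3 ranked above S100g, and Atp2b1 above Slc8a1 and Trpv5, in controls.

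Promoter sequences are shown for 4 genes: the salt carrier, the neighbouring calcium channel genes Trpv5 and Trpv6, and S100g, a classical vitamin D target. They are the 250 bases before the RefSeq start (GRCm38.p6), read 5′ to 3′ on the gene's strand: chr8:94328958-94329207 for Slc12a3 (plus strand), chr6:41680724-41680973 for Trpv5 (minus), chr6:41636406-41636655 for Trpv6 (minus) and chrX:162964600-162964849 for S100g (minus). Capitals mark every match, on either strand, to TATAAA, to the nuclear receptor half-sites AGGTCA and GGTTCA and to a direct repeat of either half-site with 3 bases between the copies, the spacing bound by the vitamin D receptor, which holds its half-site by construction.
Slc12a3: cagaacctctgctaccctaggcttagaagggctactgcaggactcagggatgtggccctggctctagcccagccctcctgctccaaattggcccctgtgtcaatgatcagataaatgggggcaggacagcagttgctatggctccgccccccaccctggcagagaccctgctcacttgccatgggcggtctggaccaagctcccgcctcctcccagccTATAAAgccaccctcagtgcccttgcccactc
Trpv5: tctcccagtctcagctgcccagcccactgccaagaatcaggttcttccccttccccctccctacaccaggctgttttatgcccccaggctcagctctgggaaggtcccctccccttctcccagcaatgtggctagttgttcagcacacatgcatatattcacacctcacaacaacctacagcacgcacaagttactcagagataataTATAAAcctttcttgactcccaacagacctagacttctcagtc
Trpv6: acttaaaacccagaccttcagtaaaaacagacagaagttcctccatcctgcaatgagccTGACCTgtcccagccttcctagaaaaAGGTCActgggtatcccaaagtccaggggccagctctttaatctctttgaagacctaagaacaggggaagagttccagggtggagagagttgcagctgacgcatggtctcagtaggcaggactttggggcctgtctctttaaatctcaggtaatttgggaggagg
S100g: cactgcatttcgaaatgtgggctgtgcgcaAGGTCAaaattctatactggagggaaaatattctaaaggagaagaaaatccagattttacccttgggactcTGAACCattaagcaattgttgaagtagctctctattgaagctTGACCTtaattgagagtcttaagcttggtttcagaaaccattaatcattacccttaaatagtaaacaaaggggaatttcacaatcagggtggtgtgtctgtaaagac
TATAAA lay 32 bases before the RefSeq start of Slc12a3 and 43 before that of Trpv5, and 12.4% of 32851 promoters hold it. By the gene coordinates given below, Trpv5 runs to 41680769, into its window, so its TATAAA falls inside the gene by that annotation. AGGTCA was matched 2 times in Trpv6, 2 times in S100g and 0 times in Trpv5 and Slc12a3, with 14% of promoters holding it. S100g had 1 match to GGTTCA, held by 8.85%. The direct repeats were matched in none of the 4 windows, and each is held by 0.00609% of promoters. RefSeq promoters were found for 9 of the 10 genes, all but Calb1. A match describes letters and not binding.

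The salt carrier gene was not called, and its interval allows a change in either direction. Slc12a3 (ENSMUSG00000031766, chromosome 8, 94329201 to 94366214, mm10) was at 2612, 1990.05 and 2028 CPM in controls 1 to 3 and at 939.7, 2226 and 3015 CPM in high-load 1 to 3. The lowest and the highest kidney of all 6 were thus both high-load kidneys, and the groups overlapped. The log2 fold change was -0.10 with SE 0.41, a 95% interval of -1.08 to 0.88 and an adjusted p of 0.899, and it was -0.17 (adjusted p 0.870) without control 2. It was 0.25 without high-load 1, 0.033 without control 1 and -0.48 without high-load 3.

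A list of 21 other genes of distal salt transport and its regulation held the WNK-SPAK kinase cascade that activates NCC, its ubiquitin ligase, the basolateral potassium and chloride channels and the aldosterone-regulated sodium channel ENaC. All 21 were tested, 0 were called by edgeR or limma-voom, while an unadjusted p under 0.05 was found for 7, of which 3 were higher and 4 lower (5 and 4 without control 2), beside 24.2% of all genes (16.1% without control 2). The median log2 fold change was -0.088. Sgk1, the aldosterone-induced kinase that stimulates both NCC and ENaC, was at 304, 308 and 326 CPM in controls and 188, 215 and 131 CPM in high-load kidneys. Every high-load kidney was thus below every control (log2 fold change -0.81, SE 0.19, adjusted p 0.103 in edgeR's test). Scnn1b, the β subunit of ENaC, was at 49.6, 61.1 and 47.9 CPM in controls and 78.9, 66.4 and 83.8 CPM in high-load kidneys, with no overlap (0.53 on the log2 scale, SE 0.13, adjusted p 0.113). Ppp1r1a, a phosphatase inhibitor, was at 187 ± 28.6 CPM in controls and 119 ± 23.3 in high-load kidneys (log2 fold change -0.66, adjusted p 0.120). Without control 2 the log2 fold changes of Sgk1, Scnn1b and Ppp1r1a were -0.83, 0.64 and -0.55 (adjusted p 0.266, 0.260 and 0.288). Wnk4, the kinase that switches on the cascade, was at 245 ± 59.9 and 249 ± 20.02 CPM (log2 fold change 0.027, and 0.24 with an adjusted p of 0.384 without control 2), and Klhl3, the adaptor that marks WNK kinases for removal, at 73.9 ± 4.24 and 48.6 ± 24.0 CPM with 21.4 in high-load 1 (-0.61, and -0.58 without control 2). These 2 were chosen after their values were seen, as genes that mark the same segment. DESeq2 called Sgk1, Scnn1b, Ppp1r1a, Kcnj16 and Nedd4l of this list, where it called 7.04% of its genes.

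For magnesium, the fitted value of the channel gene Trpm6 was closer to zero than that of the buffer gene Pvalb, and neither passed the test. Trpm6 (ENSMUSG00000024727, chromosome 19, 18749983 to 18892511), the channel through which magnesium enters, was at 31.7, 23.0 and 25.4 CPM in controls and 22.7, 25.4 and 21.4 CPM in high-load kidneys. The groups overlapped, with a log2 fold change of -0.21, SE 0.14, an interval of -0.54 to 0.13 and an adjusted p of 0.403 (-0.30 and 0.344 without control 2). Pvalb (ENSMUSG00000005716, chromosome 15, 78191114 to 78206400) encodes parvalbumin, a cytosolic calcium and magnesium buffer that in kidney marks the early distal convoluted tubule. It was at 31.8, 18.5 and 27.9 CPM in controls and 0.378, 17.1 and 6.40 CPM in high-load kidneys.

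High-load 1 had 8 counts of Pvalb, where the other kidneys had 115 to 574. Every high-load kidney was below every control, but high-load 2 lay just under control 2. The log2 fold change of Pvalb was -1.72 with SE 0.94, an interval of -3.96 to 0.52 and an adjusted p of 0.302, and -1.92 (adjusted p 0.399) without control 2. Without high-load 1 it was -1.15, without high-load 2 -2.97, and in limma-voom -2.95, so its size depended on single high-load kidneys and on the test. The ratio of Pvalb to Trpm6 CPM, chosen after the values were seen, was 1.003, 0.805 and 1.099 in controls and 0.0167, 0.673 and 0.299 in high-load kidneys.

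Skeletal muscle is another main source of Pvalb in the body. Its 6 markers summed to 0.851 to 8.88 CPM in controls and 2.36 to 4.62 in high-load kidneys, with Ckm at 0 to 3 counts, Acta1 at 0 to 4 and Myh4 at 0 in all 6, and their part in the Pvalb values was not tested. Of 19 further magnesium genes 18 were tested and 0 were called by edgeR or limma-voom, while DESeq2, which called 7.04% of its genes, called Cldn10. The unadjusted p was under 0.05 for 3 on the higher side and 2 on the lower (2 and 2 without control 2), beside the same 24.2% and 16.1% of all genes. The log2 fold change was below 0 for 14 of 18 and for 7826 of all 15955 genes, and the median was -0.25. Cldn10, a claudin of paracellular ion transport, was at 186 ± 24.7 CPM in controls and 107 ± 28.4 in high-load kidneys. The groups did not overlap (adjusted p 0.114 in edgeR's test). Arl15, a small GTPase that regulates TRPM6 and CNNM proteins, was at 27.6 ± 2.86 and 43.2 ± 12.5 CPM (adjusted p 0.158), and Slc41a1, a sodium-magnesium exchanger, at 37.5 ± 2.09 and 43.1 ± 1.80 CPM (adjusted p 0.196). Egf, named after its values were seen as the hormone that stimulates TRPM6, was at 1220 ± 120.3 and 682 ± 430.4 CPM, with 237 in high-load 1 (adjusted p 0.339). Without control 2 the log2 fold changes of Cldn10, Arl15, Slc41a1 and Egf were -0.84, 0.73, 0.22 and -0.76, beside -0.80, 0.65, 0.20 and -0.84 with it, and the lowest adjusted p was 0.269.

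Of the 10 genes, that of calcium entry had the highest fold change. Trpv5 (ENSMUSG00000036899, chromosome 6, 41652173 to 41680769, minus strand), the apical calcium channel of the late distal convoluted and connecting tubule, was at 18.5, 19.2 and 18.03 CPM in controls and at 60.4, 45.8 and 92.2 CPM in high-load kidneys. The controls lay close together (SD 0.590) and every high-load kidney was above all of them. The fold change was 3.56 (log2 1.83, SE 0.25, interval 1.24 to 2.43), and the adjusted p of 0.0784 missed the threshold. Ordered by p it was gene 39 of 15955.

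Without control 2 the log2 fold change of Trpv5 was 1.85 with an adjusted p of 0.260. With single kidneys left out it ranged from 1.51 to 2.04 and its adjusted p from 0.0143 (without high-load 2, where 3.34% of genes were called higher) to 0.260. DESeq2 gave it an adjusted p of 7.07e-09 and limma-voom one of 0.117.

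Trpv6 is the closest relative of Trpv5 and its neighbour on the same strand (chromosome 6, 41620624 to 41636405). It was at 3.72, 2.19 and 3.38 CPM in controls and at 22.4, 7.93 and 16.1 CPM in high-load kidneys, again with no overlap. Its log2 fold change was 2.32 with SE 0.41 and an adjusted p of 0.0946 in edgeR's test, and 2.12 (adjusted p 0.260) without control 2. Of 3242 stretches of 75 bases in Trpv5 transcripts, 0 occurred in those of another gene, and 0 of 4142 for Trpv6, so that reads of this length from one do not match the other exactly.

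Cytosolic calcium carriers lay on the other side. Calb1 (ENSMUSG00000028222, chromosome 4, 15881264 to 15908064), calbindin-D28k, was at 397, 319 and 335 CPM in controls and 122, 238 and 231 CPM in high-load kidneys, with no overlap. The log2 fold change was -0.83 with SE 0.26, an interval of -1.46 to -0.20 and an adjusted p of 0.142, and -0.90 (adjusted p 0.288) without control 2. DESeq2 gave Calb1 an adjusted p of 0.0245.

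S100g (ENSMUSG00000040808, chromosome X, 162961992 to 162964599), calbindin-D9k, was at 163, 166 and 82.5 CPM in controls and 49.96, 95.1 and 76.9 CPM in high-load kidneys. Control 3 was below high-load 2, so the groups overlapped. The log2 fold change was -0.89 with SE 0.33 and an adjusted p of 0.174, and -0.74 (adjusted p 0.361) without control 2. The ratio of Trpv5 to Calb1 CPM, chosen after the values were seen, was 0.0466, 0.0601 and 0.0538 in controls and 0.495, 0.193 and 0.399 in high-load kidneys. Since the CPM of both genes were already apart in opposite directions, the ratio had to be apart as well.

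The genes of calcium exit had log2 fold changes between -0.26 and 0.12. Slc8a1 (ENSMUSG00000054640, chromosome 17, 81373105 to 81738377), which encodes NCX1, was at 156, 125 and 186 CPM in controls and 90.6, 151 and 149 CPM in high-load kidneys. The groups overlapped (log2 fold change -0.26, interval -0.82 to 0.30, adjusted p 0.524). Without control 2 the groups did not overlap (-0.40, adjusted p 0.437). Its exons overlap those of AC122399.1 and Gm11096 on the opposite strand, and the sources used here do not say if reads were counted by strand. Atp2b1 (ENSMUSG00000019943, chromosome 10, 98914406 to 99026143), the pump PMCA1, was at 82.2, 73.8 and 86.0 CPM in controls and 79.6, 93.8 and 89.9 CPM in high-load kidneys. Its log2 fold change of 0.12 had an interval of -0.12 to 0.36 (adjusted p 0.485), the narrowest of the 10, and it was 0.060 without control 2. Atp2b4 (ENSMUSG00000026463, chromosome 1, 133699457 to 133801041), the pump PMCA4, was at 40.5, 39.2 and 33.7 CPM and 24.4, 37.8 and 40.1 CPM (log2 fold change -0.15, adjusted p 0.663), with -0.13 without control 2 and 0.046 without high-load 1. The groups overlapped for both pumps. Smooth muscle also expresses these 3 genes, and the summed level of its 7 markers was 211 to 346 CPM in controls and 265 to 408 in high-load kidneys; its part in these values was not tested.

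Of 19 further genes of calcium handling 16 were tested, and 0 were called by edgeR or limma-voom. The 3 not tested were Atp2b3, Slc8a3 and Calb2. The unadjusted p was under 0.05 for 4 on the higher side and 2 on the lower (2 and 2 without control 2), against 24.2% and 16.1% over all genes, with a median log2 fold change of 0.14. Trpv6 was the only one with an adjusted p under 0.1 in edgeR's test. The next 3 genes, of vitamin D signalling, are named after their values were seen. Vdr, the vitamin D receptor, was at 363, 329 and 304 CPM in controls and 123, 248 and 179 CPM in high-load kidneys, with no overlap (log2 fold change -0.86, SE 0.25, adjusted p 0.130, and -0.87 with 0.288 without control 2).

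Cyp24a1, which breaks down active vitamin D and is itself a target of the receptor, was at 418, 63.1 and 209 CPM in controls and 38.3, 27.3 and 71.5 CPM in high-load kidneys. Control 2 was the one control inside the high-load range, and without it the log2 fold change of Cyp24a1 went from -2.33 (adjusted p 0.132) to -2.78 (adjusted p 0.260). Cyp27b1, which makes active vitamin D, was at 4.16, 25.03 and 1.47 CPM in controls and 11.7, 3.37 and 16.4 CPM in high-load kidneys. Control 2 was the highest of all 6, and the log2 fold change of Cyp27b1 was 0.042 with it and 1.89 without it (adjusted p 0.984 and 0.316). DESeq2 called Trpv6, Vdr, Cyp24a1 and Calm2 of this list (7.04% over its genes).

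**Figure D3:**
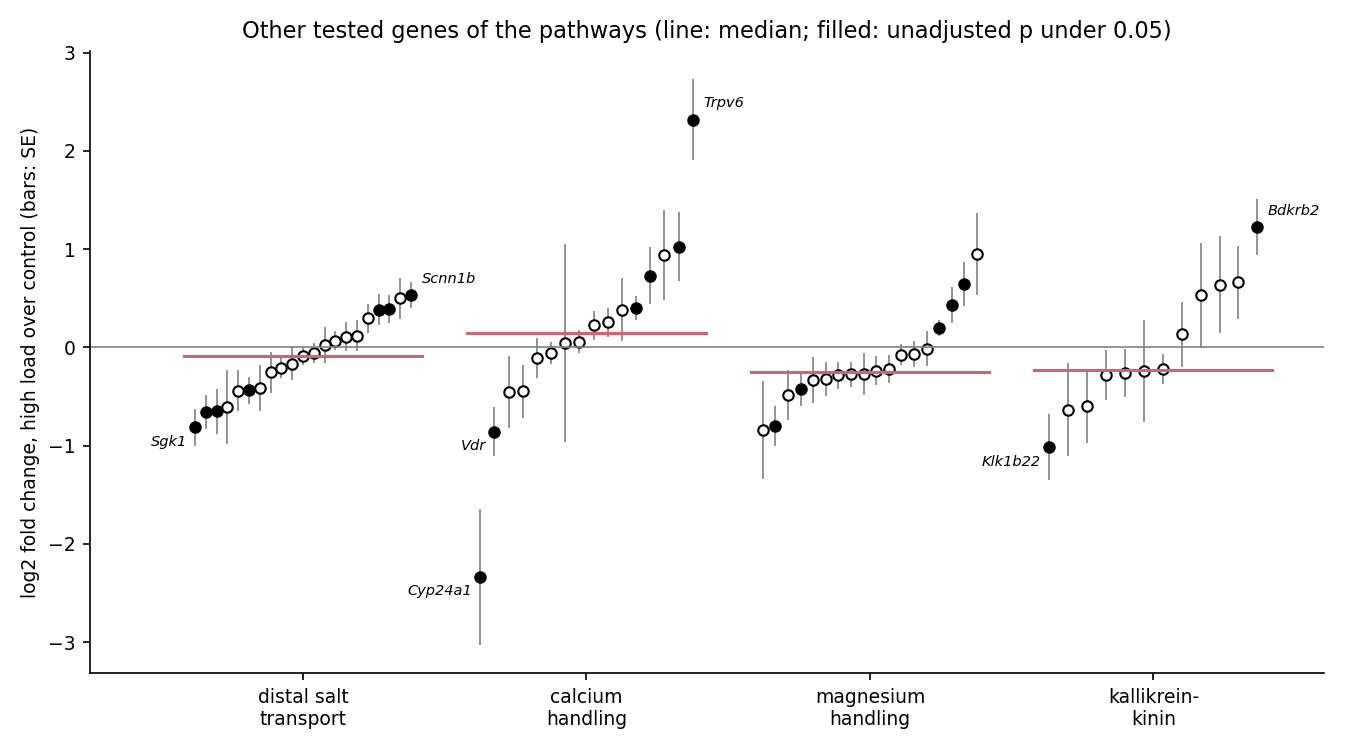
Log2 fold change, high load over control, of the 67 tested genes of 4 lists, with SE bars, where each list is sorted, the line is its median, and filled points have an unadjusted p under 0.05. None passed an adjusted p of 0.05 in edgeR's test, and Trpv6 and Cyp24a1 lie farthest from zero.

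Klk1 (ENSMUSG00000063903, chromosome 7, 44225360 to 44229618), tissue kallikrein, a protease of the connecting tubule that releases kinins, was at 2089.8, 1412 and 1878 CPM in controls and 465, 1483 and 1347 CPM in high-load kidneys. High-load 2 lay above control 2, so the groups overlapped. Without control 2 they did not. The log2 fold change was -0.71 with SE 0.43, an interval of -1.74 to 0.32 and an adjusted p of 0.350, and -0.85 (adjusted p 0.411) without control 2. It was -0.34 without high-load 1. Of the 1047 stretches of 75 bases in Klk1 transcripts, 12.1% also occur in other kallikrein genes, first Klk1b5, so that its count is uncertain by the way such reads were handled.

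A list of 20 kallikrein and kinin genes had 12 tested and 0 called by edgeR or limma-voom, with 1 higher and 1 lower at an unadjusted p under 0.05, also without control 2 (24.2% and 16.1% of all genes). Bdkrb2, the constitutive kinin receptor, was at 4.55, 2.37 and 2.996 CPM in controls and 7.94, 6.41 and 8.91 CPM in high-load kidneys, with no overlap (log2 fold change 1.23, SE 0.28, adjusted p 0.102, and 1.04 with 0.266 without control 2). The kallikrein relatives Klk1b22 (1.06 ± 0.337 and 0.522 ± 0.0341 CPM, adjusted p 0.152) and Klk1b3 (0.858 ± 0.164 and 1.36 ± 0.564 CPM, adjusted p 0.318) were at low levels, with log2 fold changes of -1.01 and 0.66, and -1.11 and 0.81 without control 2, and they share sequence with other members of the family. DESeq2 called Bdkrb2 alone of this list, against 7.04% of its genes.

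Each gene was also set against Slc12a3 in the same kidney, as log2 of the CPM ratio. The difference between groups was tested by an exact two-sided permutation test over kidneys, for 9 genes, where 3 against 3 cannot give a p below 0.1. Trpv5 relative to Slc12a3 differed by 2.01 (-6.88 ± 0.232 in controls and -4.86 ± 0.833 in high-load kidneys), Pvalb by -2.50, Calb1 by -0.64 and Klk1 by -0.61. These 4 ratios did not overlap between the groups and had that smallest exact p of 0.1 (0.225 adjusted over the 9). Of all other genes tested, 7.83% had a ratio to Slc12a3 that did not overlap, 6.79% higher and 1.03% lower. Trpv5, Calb1 and Pvalb did not overlap in CPM either. Leaving out high-load 1 put the Pvalb difference at -1.51, and leaving out high-load 2 at -3.46. For S100g the difference was -0.62 (exact p 0.3). For Trpm6 it was 0.052, for Slc8a1 -0.032, for Atp2b1 0.37 and for Atp2b4 0.070, with exact p of 0.7 to 1. Without control 2, with exact p of 0.1 for Trpv5 and 0.2 for the others, the differences were 2.11 for Trpv5, -2.66 for Pvalb, -0.63 for Calb1 and -0.70 for Klk1. For S100g the difference was then -0.38 (exact p 0.5). The CPM of Klk1 overlapped between the groups, and Slc12a3 was highest in high-load 3.

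**Figure D4:**
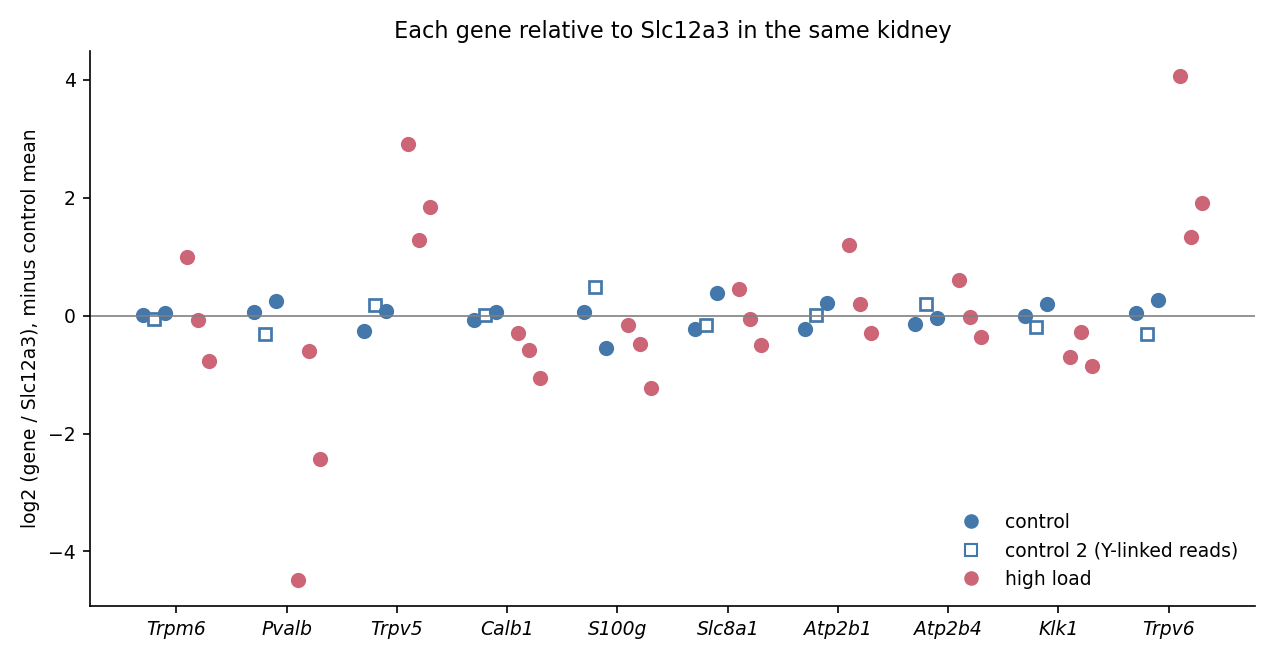
Log2 ratio of each gene to Slc12a3 in the same kidney, minus the mean of the 3 controls (vertical axis), with control 2 as an open square. Trpv5 and its neighbour Trpv6 lie above all controls and Pvalb, Calb1 and Klk1 below all controls in each high-load kidney, while the high-load kidneys of Trpm6, Slc8a1, Atp2b1 and Atp2b4 lie on both sides of zero.

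The genes whose profile over the 6 kidneys was most like that of Slc12a3 were not among the other 9 genes of the segment. By the root mean square difference of centred log2 CPM, over 12054 genes with a mean of at least 5 CPM, those nearest included the amino acid carrier Slc7a7 (0.178), the phosphatase gene Acpp (0.179), the mitochondrially encoded mt-Nd2 (0.194) and the mitochondrial enzyme gene Acss1 (0.201). These 4 had their lowest level in high-load 1 and their highest in high-load 3 or control 1. Of those 9 genes, Atp2b4 was nearest at rank 96, followed by Slc8a1 at 201, Klk1 at 356 and Calb1 at 583. Trpv5 and Pvalb were at ranks 11739 and 11977. This is a description of 6 kidneys in which 1 stands apart.

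Markers of the segments and of other cells were read in the same kidneys. The 5 genes listed as distal convoluted tubule markers outside the 10 were Wnk4, Klhl3, Emx1, Sall3 and Trpm7, all detected. They summed to 487 to 632 CPM in controls and 403 (high-load 1) to 526 in high-load kidneys, with 2 higher and 3 lower. Trpm7 made up 175 ± 22.6 CPM of the sum in controls and 144 ± 16.8 in high-load kidneys. These data do not show if Trpm7 is confined to this segment. The pair of other connecting tubule markers, Kcnma1 and Tmem45b, summed to 29.4 to 48.8 CPM in controls and 49.3 to 56.9 in high-load kidneys, with 1 of the pair higher and 1 lower and a median log2 fold change of -0.11. All 7 connecting tubule markers, of which 5 are among the 10 genes, summed to 2071 to 2864 CPM in controls. In high-load kidneys this sum was 840.5 to 2061 CPM, the opposite side from the pair. Klk1 made up 1793 ± 347 CPM of it in controls and 1098 ± 553 in high-load kidneys. The full sum thus largely repeats Klk1 and is no separate measure of the segment. The proximal tubule list was below a fold change of 1 for 12 of 12 genes. Thick ascending limb markers (8 genes, 2 higher and 6 lower) summed to 6361 to 9052 and 4896 to 5786 CPM. Macrophage markers (7 genes, 6 higher and 1 lower) summed to 279.9 to 383 and 509 to 835 CPM. Neither sum overlapped between the groups. Markers of intercalated cells (592 to 642 and 609 to 724 CPM) and principal cells (559.8 to 1126 and 519.6 to 794 CPM) overlapped. The 5 fat cell markers summed to 121 CPM in high-load 1 and 33.99 in high-load 2, against 0.668 in high-load 3 and 0.851 to 2.29 in controls. The part of these differences in the values of the 10 genes was not tested.

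**Figure D5:**
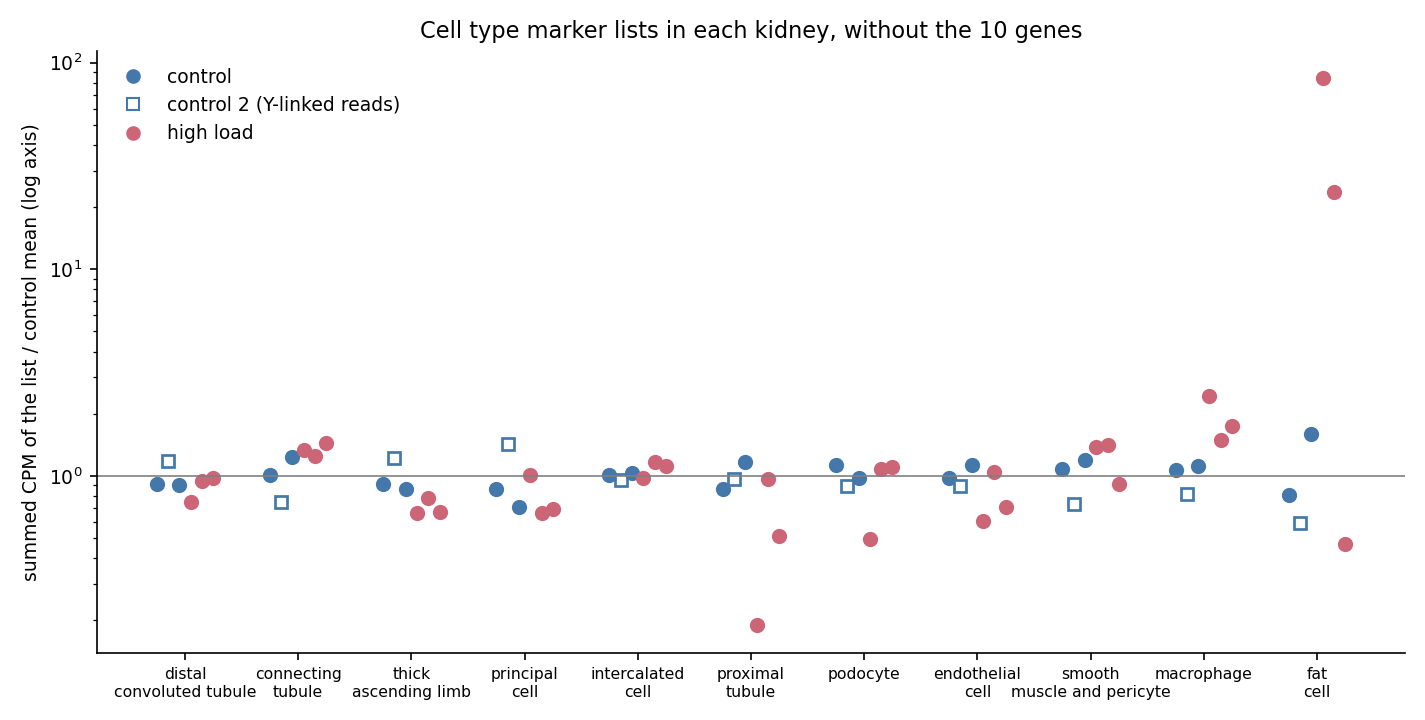
Summed CPM of each cell type marker list in each kidney over the mean of the 3 controls (log axis), with the 10 genes left out of the lists and control 2 as an open square. High-load 1 is lowest for the distal convoluted tubule, proximal tubule, podocyte and endothelial lists and, by a small margin, for the thick ascending limb list. Fat cell markers stand out in high-load 1 and 2 only.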

How the data were processed

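RNA-seq of 6 mouse kidneys was used. The authors deposited raw counts of reads in 1 table, whose rows are Ensembl genes and whose columns are kidneys. Per the submitters' processing notes, featureCounts 2.0.1, SAMtools 1.11, HISAT2 2.2.1 and fastp 0.23.2 were used, with edgeR and the build mm10. The sources used here do not give the annotation, the strand setting or the handling of reads with several matches. Per the labels' protocols, libraries came from a TruSeq RNA kit and were sequenced as 150 bp pairs. Groups and replicate numbers come from titles, and 32235 of 32285 IDs matched a symbol in GENCODE M21. The labels do not name separate litters or batches; each code was taken as 1 animal, and kidneys of a group differed by 21.3 to 100.5 times counting noise (chi-square over its degrees of freedom).

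Differences were tested in edgeR 4.0.16 (R 4.3.3) on genes kept by filterByExpr at a minimum count of 10, after TMM scaling, by the two-sided quasi-likelihood test with robust estimation and the group as the one term, with Benjamini-Hochberg adjustment over 15955 genes. Standard errors come from the F statistic. DESeq2 1.42.0 and limma-voom (limma 3.58.1) were alternatives, with other scaling, no filter, a replicate block, load as a number and each kidney left out. Tests were checked on counts simulated without an outlying kidney, so that check does not cover data in which 1 kidney stands apart. Log2 ratios used log2 CPM with a prior count of 2. Members and lists were chosen with earlier results of these data known. Of each of the 4 lists of other genes, those with an adjusted p under 0.05, else under 0.1, up to 4, were named, otherwise the 3 with the smallest p; genes like Slc12a3 were the nearest 5, of which 1 is not reported here.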

Additional observations from a re-analysis of the deposited data

How the results depend on the processing

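The median log2 fold change of the 10 genes stayed below 0 in each fit of groups; it was -0.13 with library totals as the scale, and with 1 kidney left out it ranged from -0.43 (without high-load 3) to -0.12 (without high-load 1). Of the 10 genes edgeR called 0; DESeq2 called 2, a threshold of 0.1 gave 1, and leaving out single kidneys gave 0 to 1. Of the further pathway genes edgeR called 0, DESeq2 11 and the threshold of 0.1 1, with 0 to 6 when single kidneys were left out, the 6 without high-load 2. Over all genes edgeR called 3, against 50 with no filter, 1677 by DESeq2, 0 by limma-voom, 10 with load as a number, 511 at 0.1, and 0 to 807 with 1 kidney left out (807 without high-load 2). Leaving out control 2 and high-load 1 together, an alternative chosen after seeing the data, gave 0. With the replicate number as a block 1 gene was called, and 0 of the 10. Same-numbered kidneys deviated from their group means with correlations of 0.124, -0.182 and 0.0492. Differently numbered kidneys had correlations from -0.277 to 0.313. With 3 kidneys per group these values cannot show if the numbers pair the kidneys.

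Signs changed for small differences. Leaving out 1 kidney, the log2 fold change of Slc12a3 ranged from -0.48 to 0.25 (0.033 without control 1), and that of Atp2b4 from -0.28 to 0.046. Leaving out control 2 and high-load 1 together gave 0.18 and 0.071. Relative to Slc12a3 the ranges were -0.42 to 0.46 for Trpm6, -0.28 to 0.20 for Slc8a1 (0.16 when control 3 was left out), -0.051 to 0.70 for Atp2b1 and -0.19 to 0.29 for Atp2b4 (-0.0035 when control 1 was left out). The cause was not tested. For the other 8 genes the sign of the fold change was the same under each of 15 alternatives.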
